A study of Caenorhabditis elegans with 2 samples.

Results

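The genes described here are 35 nuclear genes of Caenorhabditis elegans that encode subunits of the mitochondrial respiratory chain, cytochrome c, or factors that assemble complex IV, out of 19973 protein-coding genes on the nuclear chromosomes. They were taken by name from the WBcel235 gene models, and each name matched 1 gene. By role there were 8 genes of complex I, 4 of complex II, 6 of complex III with cytochrome c, 5 of complex IV, 7 of complex V and 5 of complex IV assembly. Their promoters were scored for binding of MEP-1 by chromatin immunoprecipitation with sequencing in whole L1 larvae, the first larval stage, of mixed sex. The strain, OP102, carries GFP-tagged MEP-1 as the insertion wgIs102 in the unc-119(tm4063) mutant background, and both replicates share this genotype. There was 1 group with 2 biological replicates, so no treatment or genotype is compared. Because whole animals were used, a peak cannot be given to a tissue.

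The respiratory chain sits in the inner mitochondrial membrane. Complexes I and II pass electrons through ubiquinone to complex III, cytochrome c carries them to complex IV, where oxygen is reduced, and complex V uses the proton gradient to make ATP. Most subunits are encoded in the nucleus and imported, while a few are encoded by mitochondrial DNA. MEP-1 is a zinc finger protein that acts with the chromatin remodeller LET-418 and is known for keeping germline genes off in somatic cells.

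A promoter peak was found at 23 of the 35 genes (65.7%), against 17.5% of all protein-coding genes. Counting only summits in the window of 1 gene, a setting added after the values were seen, left 10 of 35, against 9.23% of all genes. A gene counted as having a promoter peak when the summit of a peak in the optimal list, the set kept by the irreproducible discovery rate step over both replicates, lay between 1000 bp upstream and 200 bp downstream of any 5' end that the gene models give for the gene's protein-coding transcripts. All 5 listed complex IV subunits had one, as did 6 of 7 listed complex V genes, 3 of 4 complex II genes and 4 of 6 genes of complex III and cytochrome c. Among the members complex I had the lowest share, 3 of 8, and 2 of 5 assembly genes had a peak. These shares depend on which subunits are listed. Of 6 further complex I genes named nduf, kept in a separate list of other mitochondrial genes, 5 had a promoter peak. That makes 8 of 14 for the complex I subunit genes in these lists only. Among the nduf genes, the summits counted for nduf-2.2 and nduf-6 were nearer to the starts of dlc-1 and nars-1. Of the complex IV subunits in that list, cox-6C had a peak (signal 98.8, rank 1941) and cox-7C had none. With 4 to 8 genes a complex these shares rest on few genes, and no test of the list was made because its members were chosen with earlier results of these data known. Among genes whose midpoint lies in the middle 50% of a chromosome, 18 of 24 members had a promoter peak, against 19.9% of all such genes. The sequencing depth is unknown, since the files give peaks and no counts. The signal values below are the authors' own per peak, and they describe or rank peaks within a list only.

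**Figure D1:**
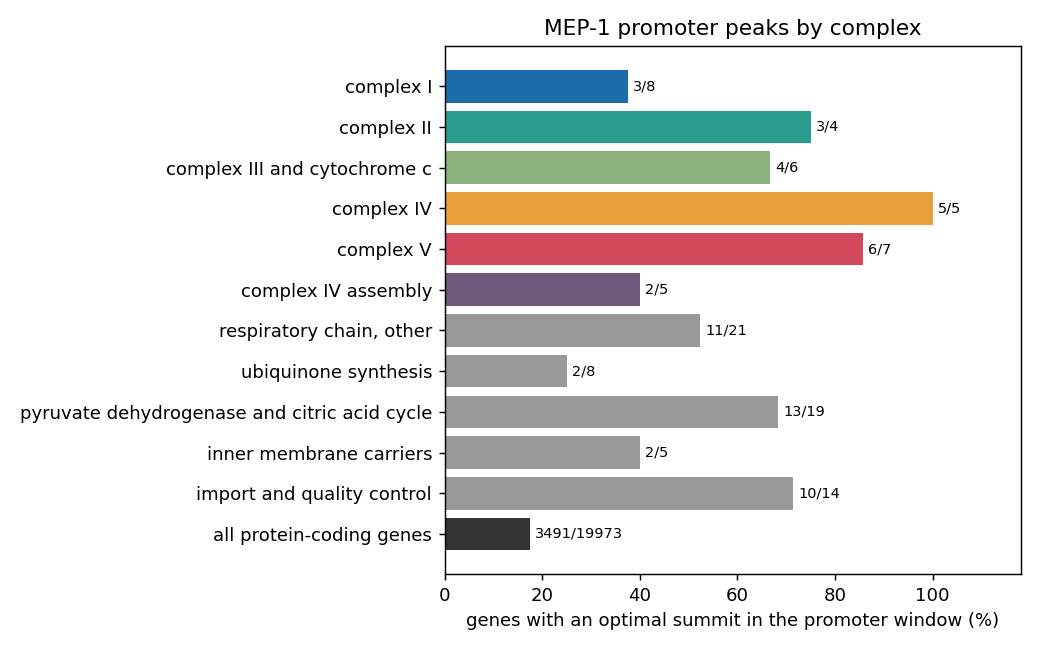
Share of genes with a MEP-1 promoter peak, in percent, for the 6 groups of respiratory chain and assembly genes (coloured), 5 lists of other mitochondrial genes (grey) and all protein-coding genes (black), with counts beside the bars. Every coloured bar is longer than the 17.5% of all genes, and complex IV reaches 5 of 5.

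The DNA at the summits is shown for the highest-signal member peak of each complex outside the first chromosome, since these 6 stretches are the strongest binding sites of their complexes that are printed here. Each runs 75 bases to either side of the summit, is given 5′ to 3′ on the strand of the gene, and comes from the RefSeq WBcel235 genome. Capitals mark 5 words of 6 bases on either strand, namely the word GACGCA, the word ACGCAG, the word CGTCTC, the word ACGCGC and the word GAGCGC. These words were taken over from earlier work on the same peaks. The first of them overlaps the second by 5 bases and can overlap the reverse complement of the third.
nuo-1, complex I, chrII:11097465-11097615, plus strand: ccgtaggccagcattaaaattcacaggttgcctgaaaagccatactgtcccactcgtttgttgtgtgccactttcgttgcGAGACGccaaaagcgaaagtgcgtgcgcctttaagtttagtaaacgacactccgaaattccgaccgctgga
sdha-1, complex II, chrX:8546143-8546293, minus strand: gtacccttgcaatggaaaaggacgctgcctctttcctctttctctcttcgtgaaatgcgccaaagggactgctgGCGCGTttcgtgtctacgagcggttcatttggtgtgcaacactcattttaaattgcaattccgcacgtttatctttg
ucr-2.1, complex III, chrX:12018083-12018233, plus strand: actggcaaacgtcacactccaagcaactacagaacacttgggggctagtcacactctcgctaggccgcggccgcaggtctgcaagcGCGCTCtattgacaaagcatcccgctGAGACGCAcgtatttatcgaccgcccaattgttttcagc
cox-5A, complex IV, chrIII:12905119-12905269, plus strand: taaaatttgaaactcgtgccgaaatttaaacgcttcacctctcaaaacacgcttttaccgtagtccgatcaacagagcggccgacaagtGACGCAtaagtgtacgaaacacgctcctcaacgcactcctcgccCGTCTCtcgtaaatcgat
asb-2, complex V, chrX:4469426-4469576, plus strand: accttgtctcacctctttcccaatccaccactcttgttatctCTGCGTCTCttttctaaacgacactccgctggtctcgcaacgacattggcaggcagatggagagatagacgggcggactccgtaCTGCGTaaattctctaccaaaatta
sco-1, complex IV assembly, chrII:4299367-4299517, plus strand: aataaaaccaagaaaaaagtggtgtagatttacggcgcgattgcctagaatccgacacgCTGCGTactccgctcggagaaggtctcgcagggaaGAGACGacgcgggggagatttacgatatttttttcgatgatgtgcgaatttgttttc

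Each of the 6 stretches holds at least 1 of the words, but the words differ between genes. The share of promoter peaks with a word in a stretch of this length was not counted. It was 58.4% within 100 bp of the summit. All 6 stretches come from the highest signal quartile of promoter peaks. Of the stronger peaks left out on chromosome I, those of cyc-1 and atp-3 held a word within 50 bp and that of atp-1 held none. At cox-5A the word GACGCA starts 14 bases downstream of the summit, at asb-2 the run CTGCGTCTC joins 3 overlapping words, and at sdha-1 the only marked word is ACGCGC on the other strand. Within 50 bp of the summit at least 1 word was present in 14 of the 23 member peaks, against 47.4% of the 2837 optimal peaks in promoter windows. By word the member counts were 5 for GACGCA (17.5% of promoter peaks), 6 for ACGCAG (16.9%), 6 for CGTCTC (18.2%), 4 for ACGCGC (14.7%) and 4 for GAGCGC (14.1%). These shares move with signal. In the highest signal quartile of promoter peaks 63.3% held a word and 12 of 14 members did, while in the 3 lower quartiles 2 of 9 members did, against 49.4%, 42.0% and 34.8% of promoter peaks in order from the higher to the lowest. The members with 3 different words were mev-1, cyc-2.1, ucr-2.1 and asb-2, whereas atp-1, atp-2, atp-4, atp-5, isp-1, sdhd-1, nuo-6, cox-6A and cox-10 held none in this window. GC content of the 101 bases at the summit had a median of 51.5% over members (39.6 to 61.4%) and 45.5% over promoter peaks.

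Complex IV, cytochrome c oxidase, had the highest median signal of the 6 groups. Its nuclear subunits surround a catalytic core encoded by mitochondrial DNA. The cox-5A peak (WBGene00012553, chrIII:12905057-12905350) had a signal of 575 and rank 19 of the 4904 optimal peaks. Its summit lay 297 bp upstream of the only annotated cox-5A 5' end and in no other gene's window, and it ranked 26 in replicate 1 and 8 in replicate 2. That is above 99.6% of the 2837 promoter peaks.

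At cox-6B (WBGene00022170) the highest peak lay at chrIII:2785916-2786189, with a signal of 471 and rank 43, and ranks 34 and 105 in replicates 1 and 2. It stood 156 bp upstream of a cox-6B 5' end, but 98 bp from that of Y71H2AM.20 on the opposite strand, and in the window of nduc-2 as well, so it cannot be given to cox-6B alone. The gene model of cox-6B has 2 start sites that lie 86539 bp apart, and a second peak (signal 137, rank 1170) lay 731 bp upstream of the far one, nearest to slc-30A9.

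The cox-5B peak (WBGene00000371, chrI:9788546-9788850, signal 298, rank 190) covered a 5' end, with the summit 33 bp upstream and ranks 232 and 151 in the replicates. At cox-4 (WBGene00012354, chrI:13659502-13659688, signal 187, rank 663) the summit was 448 bp upstream, with ranks 718 and 619 in the replicates. The weakest of the 5, cox-6A (WBGene00006519, chrIII:5080827-5080974, signal 112, rank 1605), had the most distant summit of all members, 791 bp upstream and within 200 bp of the small nuclear RNA gene F54D8.7. The part of that RNA gene in the peak was not tested. Signal in complex IV thus spanned 112 to 575 with a median of 298, by the highest peak of each gene. The median by the same measure was 106 over all genes with a promoter peak, and it was 96.5 over all promoter peaks.

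Complex V, the ATP synthase, had a peak at each of its 7 listed genes but asb-1. The alpha subunit gene atp-1 (WBGene00010419, chrI:12652130-12652401) had a signal of 382 and rank 100, and held nearly the same place in both replicates, with ranks 100 and 104. Its summit was 2 bp downstream of the 5' end, in the 5' untranslated region, and was the only member summit not upstream. The window was shared with mcrs-1 on the opposite strand. The gene of the oligomycin sensitivity subunit, atp-3 (WBGene00000230, chrI:5429829-5430054, signal 279.5, rank 244), also had its summit at the start, 15 bp upstream of a 5' end, and ranked 239 and 295 in the replicates. Its window was shared with F27C1.2 on the opposite strand, so both complex V peaks that cover a start site are shared with a divergent gene.

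The beta subunit gene atp-2 (WBGene00000229, chrIII:5227991-5228340, signal 167, rank 846) had its summit 251 bp upstream and shared its peak with C34E10.10 and C34E10.12. It ranked 1057 in replicate 1 and 565 in replicate 2. The atp-5 peak (WBGene00007385, chrV:11124113-11124235, signal 132, rank 1234), at the gene of subunit d, lay 40 bp from the start of lmtr-3 and 279 bp from that of atp-5. The weakest was atp-4 (WBGene00020275, chrV:6427406-6427755), the gene of a coupling factor, with a signal of 57.6 and rank 3782. Its summit fell in the 3' untranslated region of alh-4, which ends 95 bp before atp-4.

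The pair that encodes subunit b, the stalk of the enzyme, differed. asb-2 on X (WBGene00000207, chrX:4469374-4469625) had a signal of 278 and rank 247, with ranks 245 and 255 in the replicates. asb-1 (WBGene00000206, chrIII:4594543-4595821, minus strand), known to be expressed in the germline, had no optimal summit nearer than 8485 bp and no peak of the pooled relaxed list in its window. Such splits occurred in other pairs of related genes. sdha-1 had a peak and sdha-2 had none, cyc-2.1 had a peak and cyc-2.2 had none, while ucr-2.1 and ucr-2.2 had signals of 197 and 286 and ucr-2.3 had none. For gas-1, which had no peak, the related gene nduf-2.2 had a weak one (signal 93.3, rank 2114) whose summit was nearer the start of dlc-1. Of the copies without a peak, asb-1 and sdha-2 had a same-strand coding gene ending within 300 bp upstream. cyc-2.2, ucr-2.3 and gas-1 had no such gene, and its part was not tested.

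**Figure D2:**
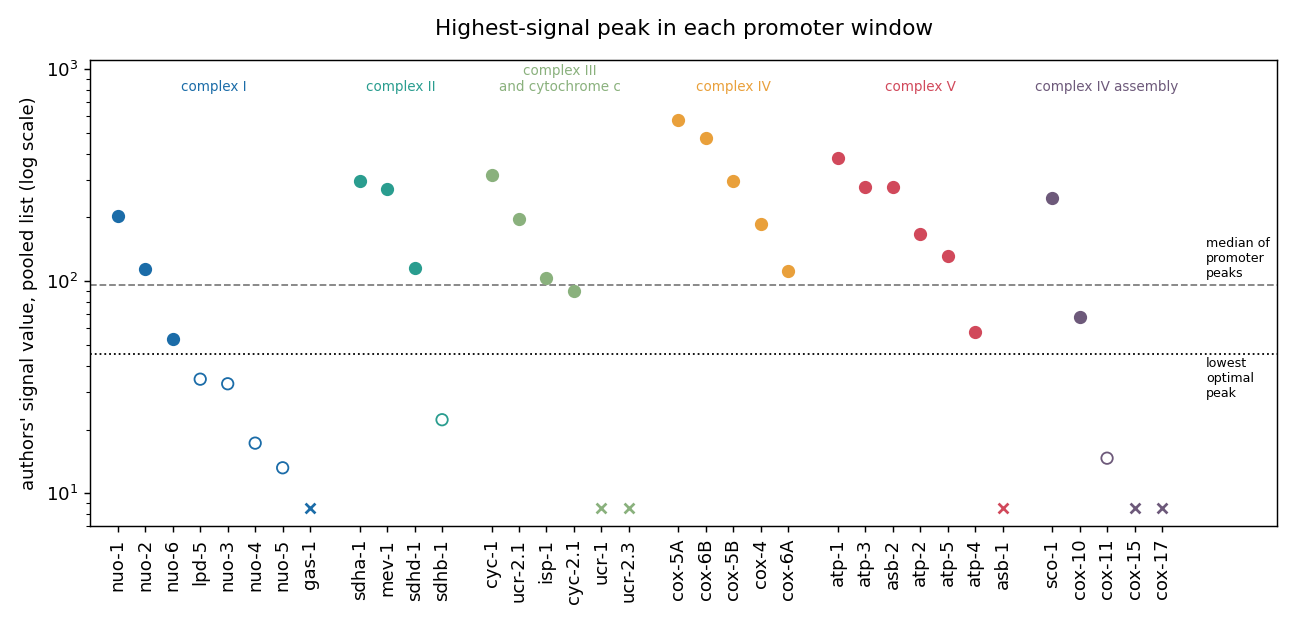
Signal of the highest peak in each member's promoter window, in the authors' units on a log axis. Filled points are optimal peaks, open points are peaks of the pooled relaxed list only, and crosses mark members with no pooled peak in the window. Complex IV lies wholly above the median of promoter peaks (96.5), and 5 of the 8 complex I genes have no peak as high as the lowest optimal one (45.3).

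In complex II, succinate dehydrogenase, which also serves the citric acid cycle, the flavoprotein gene sdha-1 had the highest signal. Its peak (WBGene00015391, chrX:8546072-8546356, signal 295, rank 200) lay 197 bp upstream in its own window only, with ranks 214 and 203 in the replicates. A small nucleolar RNA gene, D2021.6, lay within 200 bp of the summit, and its part was not tested. The mev-1 peak (WBGene00003225, chrIII:10334005-10334229, signal 272, rank 265), at the gene of a membrane anchor subunit, was nearest to the start of jmjd-4, 124 bp away, and 135 bp from that of mev-1. It ranked 404 in replicate 1 and 113 in replicate 2, the largest ratio of ranks among the members (3.58). The other anchor gene, sdhd-1 (WBGene00009353, chrII:11049900-11050249, signal 116, rank 1514), had its summit 162 bp upstream and shared its window with ilkp-1. It ranked 1513 in replicate 1 and 1842 in replicate 2. sdhb-1, which encodes the iron-sulfur subunit, had no optimal peak, and the best of 3 pooled peaks in its window ranked 11236. The nearest optimal summit to sdhb-1 lay 4207 bp away.

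In complex III the strongest peak was at cyc-1, the gene of a membrane-bound cytochrome of that complex. It lay at chrI:8024603-8024845 with a signal of 317 and rank 159, 327 bp upstream and in no other window, and ranked 194 and 134 in the replicates. The peak of the core protein gene ucr-2.1 (WBGene00012158, chrX:12017975-12018261, signal 197, rank 581) was nearer to the start of nmat-1 than to that of ucr-2.1, 271 bp away. So was the peak of isp-1, the Rieske iron-sulfur protein gene (WBGene00002162, chrIV:8136139-8136488, signal 103, rank 1824), to that of islo-1, 75 bp away against 259 bp. Both lay between genes on opposite strands. In replicates 1 and 2 ucr-2.1 ranked 515 and 765, and isp-1 ranked 1744 and 2172.

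Cytochrome c itself, cyc-2.1, had a weaker peak (WBGene00017121, chrIV:4748420-4748769, signal 89.7, rank 2238) in an intron of the gene, 146 bp upstream of the inner of its 2 start sites and also in the window of tctn-1. It ranked 2613 in replicate 1 and 1539 in replicate 2. With the outermost 5' end alone cyc-2.1 had no promoter peak. The very strong rpl-20 peak (signal 800, rank 3) lay 1053 bp upstream of that outer end, just beyond the window.

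Among the core protein genes ucr-1 and ucr-2.3 had no optimal or pooled peak in the window, and the nearest optimal summits lay 1608 bp and 8296 bp from their start sites. At ucr-1 (WBGene00018963, chrIII:5592135-5594401, plus strand) the replicates differed. Replicate 2 had a peak at chrIII:5591818-5592147 with rank 709 and its summit 152 bp upstream. Measured from that replicate 2 summit, the nearest summit in replicate 1 lay 2546 bp and in the pooled list 2548 bp away. Among the 4904 highest-signal peaks, 3.83% in replicate 2 and 1.04% in replicate 1 overlapped no pooled peak.

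Of the 8 listed genes of complex I, NADH dehydrogenase, nuo-1, nuo-2 and nuo-6 had a peak. nuo-1 encodes the NADH-binding flavoprotein, and its peak (WBGene00003831, chrII:11097442-11097667, signal 203, rank 537) lay 297 bp upstream and was shared with the ribosomal protein gene rpl-36.A on the opposite strand. It ranked 529 in replicate 1 and 697 in replicate 2. The nuo-2 peak (WBGene00020417, chrI:6532033-6532208, signal 114, rank 1560) lay in the 3' untranslated region of T10E9.14, which ends 19 bp upstream. Its summit stood 158 bp before the nuo-2 start, and it ranked 1566 in replicate 1 and 1726 in replicate 2. T10E9.14 itself had no promoter peak. nuo-6, the gene of an accessory subunit, had the weakest member peak (WBGene00012166, chrI:7069132-7069481, signal 53.3, rank 4127), 121 bp upstream and shared with tofu-5. It ranked 3600 in replicate 1 and 6868 in replicate 2.

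The members without an optimal peak that had the highest pooled signals were also of complex I. The best pooled peak at lpd-5 (WBGene00003061, chrI:4372255-4373018, minus strand) had a signal of 34.5 and rank 6591, and that at nuo-3 (WBGene00013308, chrIV:14796419-14797544, minus strand) a signal of 32.9 and rank 6971, against a lowest optimal signal of 45.3. lpd-5 ranked 7912 in replicate 1 and 5673 in replicate 2, and nuo-3 5599 and 19079. At nuo-4 and nuo-5 the pooled peaks ranked 16311 and 24014, and replicate 2 had no overlapping call. The nearest optimal summits lay 3434 bp from nuo-3, 2955 bp from nuo-4, 4367 bp from nuo-5 and 5086 bp from lpd-5. gas-1 (WBGene00001520, chrX:15586786-15590397, minus strand), which encodes a core subunit, had no pooled peak in its window, and the nearest optimal summit was 10355 bp upstream.

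Of the assembly factors for complex IV, sco-1, which delivers copper, had a strong peak (WBGene00015297, chrII:4299345-4299532, signal 246, rank 351) in its own window only, 211 bp upstream, with ranks 462 and 194 in the replicates. cox-10, whose product makes heme O, had a weak one (WBGene00012895, chrII:12679663-12680012, signal 67.7, rank 3111), 116 bp upstream in a window shared with Y38E10A.33. It ranked 3618 in replicate 1 and 2955 in replicate 2. The copper factors cox-11 and cox-17 and the heme A synthase gene cox-15 had none, and of the 3 cox-11 alone had a pooled peak in its window, at rank 20817. The nearest optimal summit to cox-15 lay 1539 bp upstream, outside the window, that to cox-11 3643 bp away, and that to cox-17, near the end of chromosome III, 44362 bp away.

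Over the 23 members with a peak the summit distance had a median of 211 bp upstream, against 221 bp over all 3491 genes with a promoter peak. The summit was at most 300 bp from the start for 19 of 23 members, against 64.2% of all such genes. By annotation, 18 of 23 summits lay between genes, against 80.1% over all genes with a promoter peak. The window of at least 1 other gene held the summit for 13 of 23 members, against 48.0% of all genes with a promoter peak, and in 12 of these 13 a partner lay on the opposite strand, against 94.2% of all genes with a shared peak. The summit was nearest to the member's own 5' end at 18 of 23, against 74.9%. The 5 others were mev-1, isp-1, ucr-2.1, cox-6B and atp-5. Median signal was 197 over the 23 members, against 106 over all genes with a promoter peak, and 18 of 23 members were at or above 106.

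**Figure D3:**
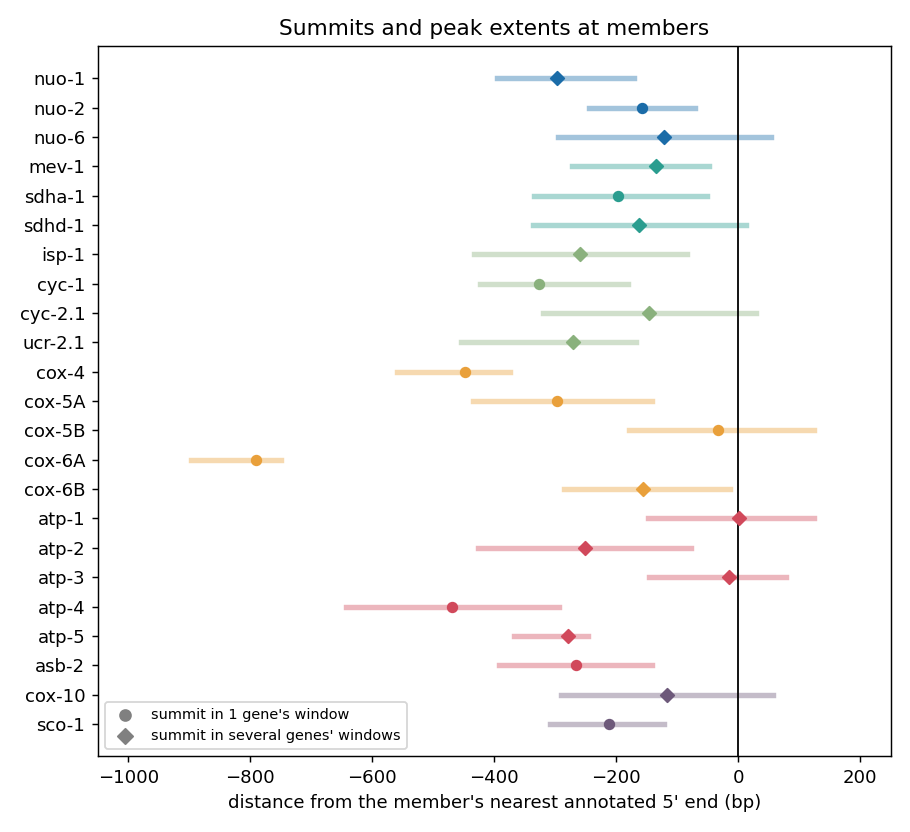
Summit (marker) and extent (bar) of the highest-signal peak at each of the 23 members with a promoter peak, in bp from the nearest annotated 5' end of the member, with negative values upstream. Circles lie in 1 gene's window and diamonds in several. All summits but that of atp-1 (2 bp downstream) are upstream, and cox-6A is the farthest at 791 bp.

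In their relaxed lists, of 30000 and 29149 peaks, both replicates held an overlapping call for all 23 peaks. The share of all promoter peaks with such calls was not counted. Among the 4904 highest-signal peaks of each replicate were 21 of 23, against 81.8% of the 2837 optimal peaks in promoter windows, and the exceptions were nuo-6 and atp-4, which ranked 6868 and 6143 in replicate 2. Closeness of ranks was not counted over all promoter peaks. The ranks in the replicates were within 1.5-fold of each other for 13 members. They differed by more than 2-fold at mev-1, cox-5A and sco-1, which ranked higher in replicate 2, and at cox-6B and cox-6A, which ranked higher in replicate 1. The optimal list was made from these replicates, so a call in both is partly built in. Replicate summits lay a median of 2 bp from the optimal summit in replicate 1 and 7 bp in replicate 2, and at most 44 bp.

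**Figure D4:**
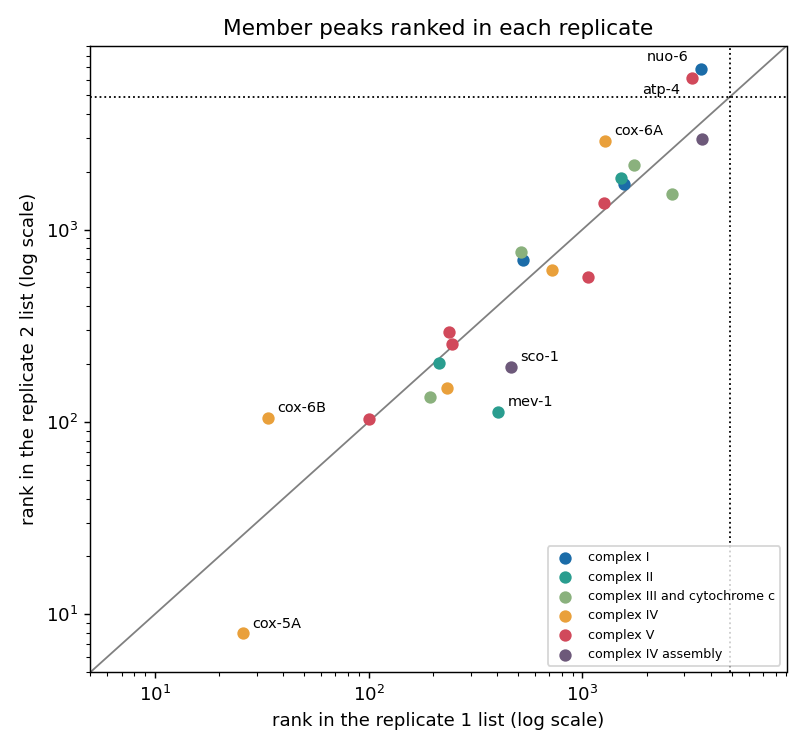
Rank of the 23 member peaks in the replicate 1 list (horizontal) and the replicate 2 list (vertical), both on log axes, where low ranks are high signals. The line marks equal ranks and the dotted lines rank 4904. Named are the 5 members that differ by more than 2-fold and nuo-6 and atp-4, which lie beyond rank 4904 in replicate 2.

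The 12 members without a promoter peak were compared with the rest for what lies upstream. In C. elegans many genes are transcribed in operons, in which a downstream gene lies a short way behind another on the same strand and shares its promoter. No operon annotation was used here, and a same-strand coding gene ending within 300 bp of the start was counted instead. Such a neighbour was found at 6 of the 12 members without a peak (nuo-4, nuo-5, asb-1, cox-11, cox-15 and cox-17), against 15.2% of all genes without a peak. It was found at 3 of the 23 with a peak (nuo-2, cyc-2.1 and atp-4), against 8.97% of all genes with a peak. Of genes with such a neighbour 3 of 9 members had a promoter peak, against 11.1% of all, and of genes without it 20 of 26 members, against 18.5%.

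Following the close neighbours upstream gene by gene led to a promoter peak for 5 of the 6, against 38.7% of all genes without a peak that have such a neighbour. At nuo-5 it was the peak of Y45G12B.2 (signal 175, rank 762, shared with Y45G12B.3) and at asb-1 that of sel-2 (102, rank 1856). At nuo-4 the peak stood 2 genes upstream, at syf-2 (182, rank 700), but nearer to the start of K04G7.1. At cox-11 it stood likewise in the window of lin-54 (549, rank 24), 363 bp from its start but 30 bp from that of the ribosomal protein gene rpl-12. At cox-15 the next gene, cchl-1, had a peak at the foot of the list (45.4, rank 4884) and rpn-9, further up, a stronger one (204, rank 536, shared with T06D8.9). ubc-20, upstream of cox-17, had none. Whether these genes are transcribed together was not tested. The other 6 members without a peak, nuo-3, gas-1, lpd-5, sdhb-1, ucr-1 and ucr-2.3, had no such neighbour.

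Other mitochondrial genes, listed by name in 5 groups, had a promoter peak at 38 of 67 (56.7%), against the same 17.5%. Respiratory chain genes outside the members had one at 11 of 21, led by ucr-2.2 (signal 286), cox-14 (262, shared with rde-4) and nduf-11 (237). Pyruvate dehydrogenase and citric acid cycle genes had one at 13 of 19, led by dld-1 (329), aco-2 (218, nearest to eef-1B.1) and sucl-1 (197). Import and quality control genes had one at 10 of 14, led by the import receptor gene tomm-20 (415), timm-17B.1 (248) and timm-23 (245, shared with F15D3.6). Of 5 inner membrane carriers, the ADP/ATP carrier gene ant-1.1 (237, shared with T27E9.2 and abcf-2) and ucp-4 (54.9, shared with acl-14) had one. Ubiquinone synthesis genes had the lowest share of the 5 lists, 2 of 8, at coq-1 (92.9) and coq-5 (57.4, nearest to ufm-1 and shared with tomm-7). All 6 ubiquinone genes without a peak had a close same-strand neighbour upstream. The lists differed, with 6 of 10 other respiratory chain genes, 3 of 4 import genes, 1 of 6 citric acid cycle genes and 0 of 3 carriers. Over the 5 groups 16 of 29 genes without a peak had such a neighbour, against 15.2% of all genes without a peak. Of genes with a peak 1 of 38 had one, against 8.97% of all. For 9 of the 16 a promoter peak lay further up the chain, against 38.7% of all such genes.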

How the data were processed

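The binding of tagged MEP-1 was measured in 2 biological replicates and deposited as peak lists. Libraries held fragments between 150 and 350 bp, as the labels state. Each replicate has a relaxed list, both pooled have another, and the optimal list was derived from these 3, per the deposited file lists. The aligner, the caller and the threshold were not given in the sources used here. Per the deposited file lists the calling used a control, which was not analysed here. Each deposited peak carries the authors' signal value, whose scale differs between lists. It also carries the authors' −log10 q value, which stands at its ceiling for 20 of the 23 member peaks. On ce11 there were 4904 optimal peaks, 30000 pooled, and 30000 and 29149 in replicates 1 and 2, all nuclear, so genes of mitochondrial DNA are not described. The ce10 lists were not used, since no ce10 gene models were at hand.

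Gene models were Ensembl release 115 on WBcel235, the same build as ce11, and coordinates count from 1. Peaks were ranked by signal within each list, and a replicate call was the highest-signal peak overlapping by at least 1 bp. Words were searched on both strands within 50 bp of the summit. The window rule recovered all 200 summits planted in windows of simulated data over 19973 genes. The members, gene lists and words were chosen with earlier results of these data known, and the neighbour distance of 300 bp and the shared words in the closing section were chosen after values were seen. Every member is named, sequences are those of the strongest member peak per complex outside the first chromosome, and the other mitochondrial genes named are up to 3 by signal in each list; 1 listed name, cox-23, matched no gene. No set test was made. The proteins of asb-1 and asb-2 are not shown. The software was Python 3.11.15 with pandas 2.3.3, numpy 2.4.6 and, for plots, matplotlib 3.10.9.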

Additional observations from a re-analysis of the deposited data

How the results depend on the processing

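Members with a promoter peak numbered 22 with a window of 500 bp upstream (14.3% of all genes), 24 with 2000 bp (22.3%), 22 with a window ending at the 5' end (16.9%), 22 with outermost 5' ends alone (16.3%) and 20 with the higher-signal 50% of peaks (11.4%). It was 22 without replicate 1 (3590 of all genes), where nuo-6 and atp-4 were lost and ucr-1 was gained, and 23 without replicate 2 (3467). Both counts use the list of the other replicate and not a remade optimal list. The lost nuo-6 and atp-4 ranked 6868 and 6143 in replicate 2, beyond rank 4904. The member count was 18 (51.4%) when a summit went to the gene with the closest start only, against 13.3% of all genes, and 29 with the full pooled list. Counting only summits in 1 gene's window left 10 members and 1844 of all genes (9.23%). The count over all genes moved to 2267 with the higher-signal 50% of peaks and 8455 (42.3%) with the full pooled list. In the middle 50% of chromosomes it was 2197 of 11042 genes, a lower count because fewer genes were tested, with a share of 19.9%. Other mitochondrial genes with a peak numbered 29 to 50. Members found in both replicates numbered 18 when a reciprocal overlap of 50% was asked for, and 21 with summits within 100 bp. Neither count has a share over all promoter peaks beside it. Member peaks with a listed word numbered 15 within 100 bp, against 58.4% of promoter peaks, and 16 over the whole peak, against 62.1%. The restriction to 1 gene's window, to genes in the middle of chromosomes and to genes without a close neighbour was added after the data were seen. Apart from leaving out a replicate, which can move a count either way, the other settings count fewer or more peaks by construction. Depth is unknown. No paired analysis was possible because there is only 1 group.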

Other observations

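Beyond the 5 listed words, some longer words recurred among the 23 member peaks, counted on both strands within 75 bp of the summit. They were picked from 2910 different words of 8 bases because they recurred, so no test is given. GATTTACG was present at 6 members (nuo-6, cox-4, cox-5A, cox-5B, cox-10 and sco-1), against 3.81% of the 2837 promoter peaks, and 4 of these 6 carried the overlapping CCGTAAAT (2.01%). GGGCGGTC was present at cyc-2.1, ucr-2.1, atp-2 and atp-3, against 0.493% of promoter peaks. TGCGAGAC was present at nuo-1, atp-2, asb-2 and sco-1 (2.54%), and CGGAGTGT at nuo-1, nuo-6, sdhd-1 and asb-2 (2.71%). The other 3 words found at 4 members were runs of A and T with at most 1 other base.

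Among words of 10 bases, CGACACTCCG was present at nuo-1, nuo-6 and asb-2 (2.15% of promoter peaks) and TCTCGCAACG at nuo-1, atp-2 and asb-2 (0.846%). nuo-1 and asb-2, which encode parts of different complexes, held both. These words were likewise picked because they recurred, from 3174 different words of 10 bases. CGACACTCCG contains the reverse complement of CGGAGTGT, and TCTCGCAACG overlaps that of TGCGAGAC, so they add no separate recurrence to the words of 8 bases.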
